A study of Mus musculus with 2 samples.

Results

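The liver fate transcription factors are 8 genes, Hnf4a, Foxa1, Foxa2, Foxa3, Onecut1, Hhex, Prox1 and Sox9, chosen by name: all probes on the array whose gene symbol, current or older, is one of these. They have 15 of the 41158 gene probes and are 8 of 20054 named genes. Each group was 1 culture on 1 array: expandable hepatoblasts of mouse strain C57BL/6 at passage 20, and expandable hepatoblasts of the same strain at passage 5. Hepatoblasts are the fetal liver progenitors that give rise to hepatocytes and bile duct cells. Both cultures were grown, on Matrigel or on laminin (the labels do not say which for which), in defined medium with 5 mM nicotinamide, the lipids S1P (0.5 μM) and LPA (5 μM), 10 ng/ml EGF, 3 μM CHIR99021 (which blocks the kinase GSK3) and 2 μM E-616452 (which blocks the TGF-beta type I receptor), and were split 1 to 6. The labels state that the passages came from separate experiments, so passage and experiment cannot be told apart, and with 1 array each no difference below has a replicate check or a p-value.

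These factors act as a network. FOXA proteins open closed chromatin in the early gut tube before liver genes are switched on, HHEX and PROX1 are needed for hepatoblasts to leave the gut epithelium and form a liver bud, HNF4A drives the hepatocyte and epithelial programme, and ONECUT1 and SOX9 act in the cells that become bile ducts. PROX1 and HHEX are also made in endothelial cells, and SOX9 also in intestinal crypts, pancreatic ducts and cartilage. The array reads their RNA through 60-base probes, some of which lie in the stretch that codes for the part of the protein that binds DNA. Those of the 4 genes below are shown because they are the probes that see this part of the message, and each is given 5′ to 3′ as printed on the array, in build mm9.
Hnf4a, zinc fingers, chr2:163378302-163378361, plus strand: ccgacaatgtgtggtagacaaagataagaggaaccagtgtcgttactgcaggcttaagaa
Hhex, homeodomain, chr19:37511721-37511780, plus strand: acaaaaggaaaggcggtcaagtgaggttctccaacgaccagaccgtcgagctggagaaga
Onecut1, homeodomain, chr9:74737272-74737331, plus strand: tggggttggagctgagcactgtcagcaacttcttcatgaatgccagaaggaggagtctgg
Sox9, HMG box, chr11:112644310-112645162, plus strand: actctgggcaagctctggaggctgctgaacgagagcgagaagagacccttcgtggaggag
The 60 bases of the Sox9 probe are spread over 853 bases of the genome, so this probe bridges an intron, as does 1 Prox1 probe, which spans 7058 bases; the other 13 member probes each lie within 60 consecutive bases.

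The scanner software called 46.1% of the passage 20 gene probes and 45.5% of the passage 5 ones well above background. The signal at the 75th percentile was 853 at passage 20 and 1085 at passage 5, and levels are given as log2 values relative to it, so that differences (passage 20 minus passage 5, in log2) are free of that shift of -0.35. Probes spotted many times on each array gave the technical error: in 114 such probes above background, the difference had a median SD of 0.04 log2 between spots. The scanner software's own error for 1 spot was larger, about 0.20 log2 for a bright probe. Neither covers variation between cultures. The cultures also differed in sex-linked RNA: the signal of Xist was 28445 at passage 20 and 991 at passage 5. That of the Y-linked gene Ddx3y was 21.7 at passage 20, under the background call, and 2576 at passage 5. A difference in sex of the source animals, which was not tested, thus cannot be told apart from passage either. Of the hepatoblast markers, 8 of 10 passed the background call on 1 array or both, but Dlk1 and Igf2 on neither. Of these 8, Gpc3 passed at passage 5 only and was at least 9.49-fold lower at passage 20, a direction fixed by the call itself. Lin28b (3.32-fold), Anpep (2.27-fold) and Epcam (2.24-fold) were also lower at passage 20. Cdh1 (2.89-fold) and Lgr5 (2.24-fold, with another probe at -0.73 log2) were higher. Afp and Hnf4a, itself a member, were within 2-fold. Of all genes that passed on 1 array or both, 5.74% were 2-fold lower and 3.26% higher. Over the 7 markers that passed on both arrays, 3 were 2-fold lower and 2 higher. Of all 10749 genes that passed on both arrays, 428 were 2-fold lower and 266 higher. The part of these markers in the members' differences was not tested. Of 9 hepatocyte markers on the array only Apoa1 passed the call, and only at passage 5.

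RNA of 6 of the 8 factors passed the background call on both arrays: Hnf4a, Foxa2, Onecut1, Hhex, Prox1 and Sox9. Prox1 did so at its last probe only, and its other probes failed the call on both arrays. Foxa1 and Foxa3 passed the call on neither array. Of 20054 named genes, 10749 passed it on both arrays, and 58.8% passed it on 1 array or both and are called measured here. By the brightest probe of each gene, Prox1 was at least 2-fold higher at passage 20 and no member was 2-fold lower; over all 11799 measured genes, 3.26% were 2-fold higher and 5.74% 2-fold lower, 9% in all. At 1.5-fold Prox1 was again the one member past the line, where 22.2% of measured genes lay past it, 10.4% higher and 11.8% lower. By their brightest probes, Hnf4a, Foxa2, Onecut1, Hhex and Sox9 were all on the lower side at passage 20, by 0.11 to 0.51 log2. Of all measured genes, 42.4% were below 0. The differences of Foxa2 and Hhex were under the scanner error of 0.20 log2, and those of Hnf4a and Onecut1 were about its size. The median of the 6 was -0.18 log2, against 0.07 for all measured genes. With the mean over each gene's probes, 3 members were below 0 and 3 above, and their median was -0.04 log2. Because bulk RNA was measured, fewer cells making a factor and less of its RNA per cell cannot be told apart.

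**Figure D1:**
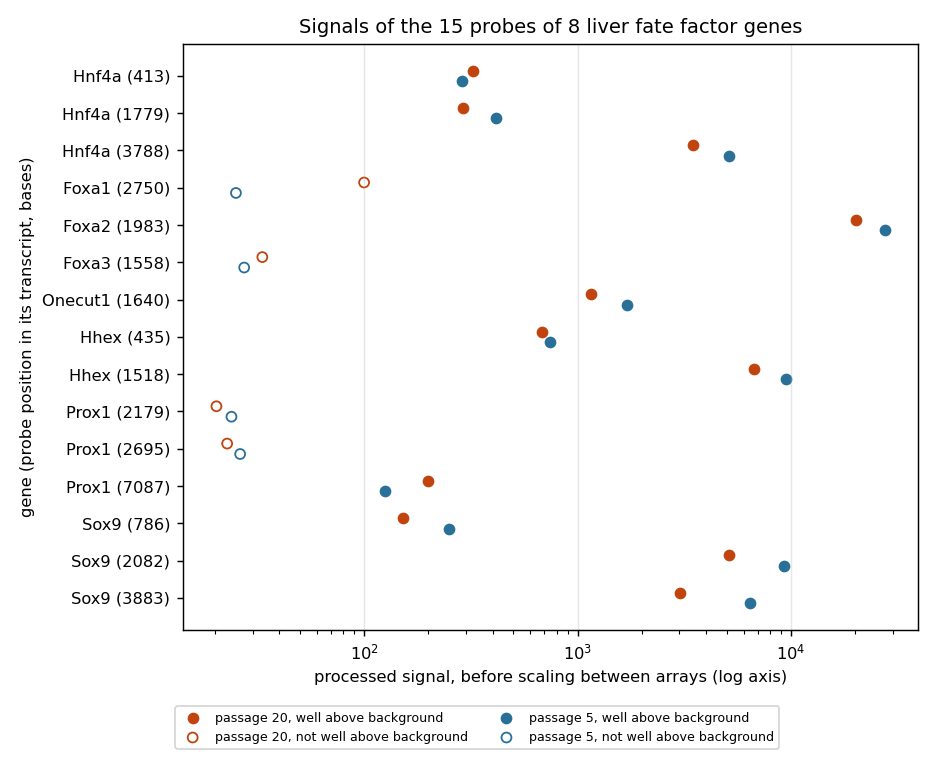
Processed signal (log axis, before scaling between arrays) of each of the 15 member probes at passage 20 and at passage 5, with the probe's position in its transcript in brackets; open circles were not well above background. Foxa1, Foxa3 and the first 2 Prox1 probes have open circles on both arrays, and 10 of the 11 remaining probes have passage 20 and passage 5 points less than 2-fold apart.

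Hnf4a, the nuclear receptor that directs hepatocyte and epithelial genes, was read by 3 probes that did not all lean the same way. The brightest, at position 3788 of the transcript (chr2:163398074-163398133), had a signal of 3478 at passage 20 and 5113 at passage 5, a difference of -0.21 log2 after scaling, or 1.16-fold lower. The probe at position 1779 gave 292 at passage 20 and 414 at passage 5, a difference of -0.15. The zinc finger probe at position 413 gave 323 at passage 20 and 287 at passage 5, a difference of 0.52 log2 with a scanner error of 0.25. The 3 probes thus covered a range of 0.73 log2, and the mean over them was 0.05. This range was wider than in 82.9% of 4300 genes with several measured probes. Those genes were not matched for their number of probes, and a range can widen with more probes.

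**Figure D2:**
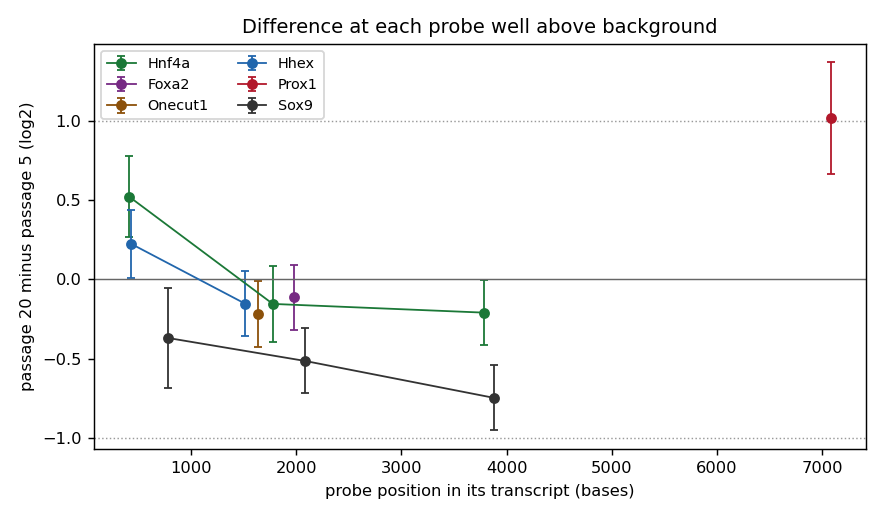
Difference (passage 20 minus passage 5, log2) at each member probe well above background, against the probe's position in its transcript; bars are the scanner software's error and dotted lines mark 2-fold. In Hnf4a, Hhex and Sox9 the first probe has the highest difference, and the single Prox1 probe lies at 1.02.

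In a comparison added after seeing the data, the same order along the transcript was seen in all 3 members with several measured probes. The difference at the first probe exceeded that at the last by 0.73 log2 in Hnf4a, by 0.38 in Hhex and by 0.38 in Sox9. Over 1002 transcripts whose first and last measured probes lay 2000 or more bases apart, the median of this quantity was 0.14 log2, 62.1% were above 0, and the range from the 10th to the 90th percentile was -0.42 to 0.85, which includes Hnf4a and Sox9. Over all 3557 transcripts with several measured probes the median was 0.00. The part of probe position in the members' differences was not tested further.

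Of the FOXA family, the pioneer factors of endoderm, only Foxa2 passed the background call. Its single probe (chr2:147868698-147868757) is spotted 10 times on each array, which makes it one of the most precisely measured members. The signals ran from 18532 to 21502 with a median of 20033 at passage 20, and from 25889 to 29229 with a median of 27729 at passage 5. Before scaling the 2 sets of spots did not overlap, but they did once the shift of -0.35 log2 between the arrays was taken out. After scaling the difference was -0.11 log2 (SD 0.02 over 10 spots), or 1.08-fold lower at passage 20. Foxa1, which overlaps with Foxa2 in liver specification, had a signal of 99.9 at passage 20 and 25.1 at passage 5 at its single probe. The lowest signal of a probe that passed the call at passage 20 was 94.6, so Foxa1 lay at the limit there. The scanner software called neither Foxa1 signal well above background. Foxa3, the member best known for sustaining hepatocyte gene expression after birth, had a signal of 33.3 at passage 20 and 27.4 at passage 5, likewise both below that call. No fold is given for Foxa1 or Foxa3.

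**Figure D3:**
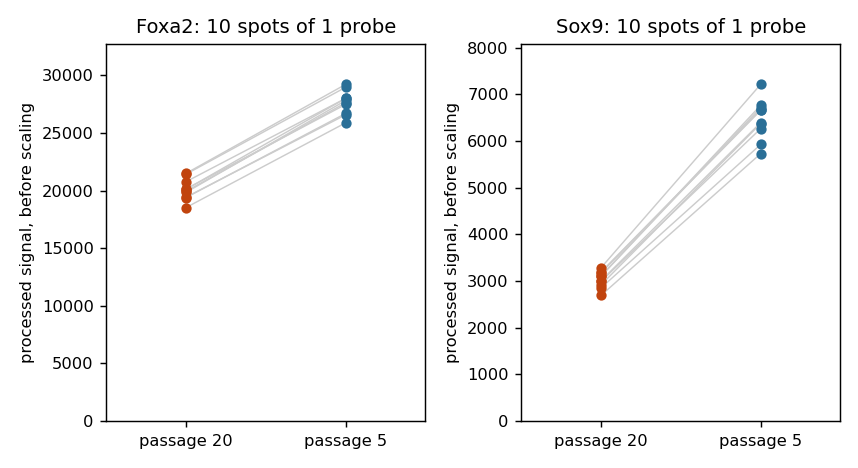
Processed signal (linear axis from 0, before scaling) of the 10 spots of the Foxa2 probe and of the 10 spots of 1 Sox9 probe; grey lines join the same spot position on the passage 20 and passage 5 arrays. In both genes every passage 20 spot lies below every passage 5 spot, with a wider ratio for Sox9 than for Foxa2. After scaling, which is not drawn here, this separation holds for Sox9 but not for Foxa2.

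Sox9, the HMG box factor of duct progenitors, was lower at passage 20 at all 3 of its probes, though at none by 2-fold after scaling. The probe spotted 10 times, at position 3883 (chr11:112648809-112648868), ran from 2692 to 3285 with a median of 3053 at passage 20, and from 5729 to 7213 with a median of 6524 at passage 5. Its difference was -0.75 log2 (SD 0.03 over 10 spots), or 1.68-fold lower. The single-spot probe at position 2082, which is the brightest and gives the gene's value, had 5123 at passage 20 and 9296 at passage 5, a difference of -0.51, or 1.43-fold lower. The HMG box probe had 153 at passage 20 and 251 at passage 5, a difference of -0.37 with a scanner error of 0.31. Of all measured genes, 13.3% had a lower difference than the -0.51 of Sox9. Without any scaling between arrays the 10-spot probe was 2.13-fold lower at passage 20.

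Onecut1 (HNF6), which activates Hnf4a and restrains duct fate in early hepatoblasts, had a signal of 1158 at passage 20 and 1714 at passage 5 at its single probe in the homeodomain. The difference was -0.22 log2, or 1.16-fold lower, with a scanner error of 0.21. Hhex, a homeodomain repressor needed for the liver bud, had 6715 at passage 20 and 9499 at passage 5 at its brighter probe (chr19:37514969-37515028), a difference of -0.15 log2. Its homeodomain probe had 682 at passage 20 and 743 at passage 5, a difference of 0.22. The 2 Hhex probes therefore differed in sign, each by about the size of the scanner error, and their mean was 0.03 log2.

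Prox1, a homeodomain factor of hepatoblast migration and of lymphatic endothelium, had the largest difference of the 6 measured members, at a probe read close to the background limit. Only its last probe, at position 7087 near the end of a long transcript (chr1:191942646-191942705, minus strand), was well above background, with 200 at passage 20 and 126 at passage 5. This made it 2.02-fold higher at passage 20, a difference of 1.02 log2 with a scanner error of 0.35, so its value lay just past the 2-fold line. The probe that bridges an intron gave 20.3 at passage 20 and 23.9 at passage 5. The probe at position 2695 gave 22.8 at passage 20 and 26.2 at passage 5. None of these signals was well above background, and both probes belong to another transcript record than the last probe. Their positions are thus not counted along the same transcript as its position. Under quantile normalization Prox1 was at 0.82 log2, with scaling to the spike-in RNA at 0.80 and with normexp background correction at 0.64, so that it stayed on the higher side but under 2-fold. Of 12 endothelial markers, 10 were above background on neither array, including Pecam1, Cdh5, Lyve1 and Flt4; Egfl7 was 3.25-fold lower at passage 20, and Pdpn was above background at passage 20 only, at least 1.39-fold higher.

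**Figure D4:**
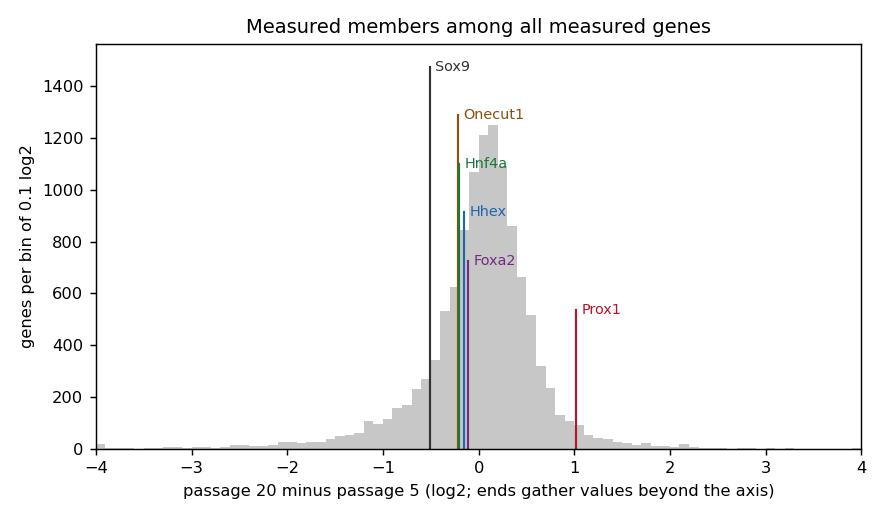
Histogram of the difference (passage 20 minus passage 5, log2; bins of 0.1) of all 11799 measured genes, with the 6 measured members as vertical lines of arbitrary height. Hnf4a, Onecut1, Hhex and Foxa2 lie between -0.22 and -0.11, Sox9 lies at -0.51 and Prox1 at 1.02, above 96.9% of genes.

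A comparison between members does not depend on a constant shift between the arrays. Relative to Foxa2, Sox9 was lower by 0.40 log2 at passage 20 by its brightest probe, with a scanner error of 0.29 for this contrast. Hnf4a, Foxa2, Onecut1 and Hhex differed from one another by 0.11 log2 or less, under the scanner error of 0.29 for each such contrast. Prox1 exceeded the other 5 by 1.13 to 1.53 log2, with a scanner error of 0.41. The choice of scaling moved the split of all 2-fold genes: 36.3% of the 2-fold different genes were higher as scaled here, 27.3% with quantile normalization, 25.7% with loess, 19.5% with spike-in scaling, 14.6% with median centring and 13.1% with no scaling. Spike-in scaling took the median of all measured genes to -0.14 log2. Expressed against the median of all measured genes under the same setting, Sox9 lay between -0.60 and -0.56, Hnf4a between -0.29 and -0.27, Onecut1 between -0.30 and -0.25, Hhex between -0.29 and -0.20, Foxa2 between -0.23 and -0.18 and Prox1 between 0.60 and 0.95 over the 10 settings that use each gene's brightest probe and the filter on dim probes. Taking the median away cancels a constant shift, so median centring, spike-in scaling and no scaling gave the same values here by arithmetic. With the mean over probes, a setting outside these 10, Hnf4a lay at -0.02, Hhex at -0.04 and Sox9 at -0.62. Onecut1, Foxa2 and Prox1 stayed within the ranges above. Positive differences under 0.35 log2, such as that of the Hhex homeodomain probe and that of Afp below, are negative without scaling.

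**Figure D5:**
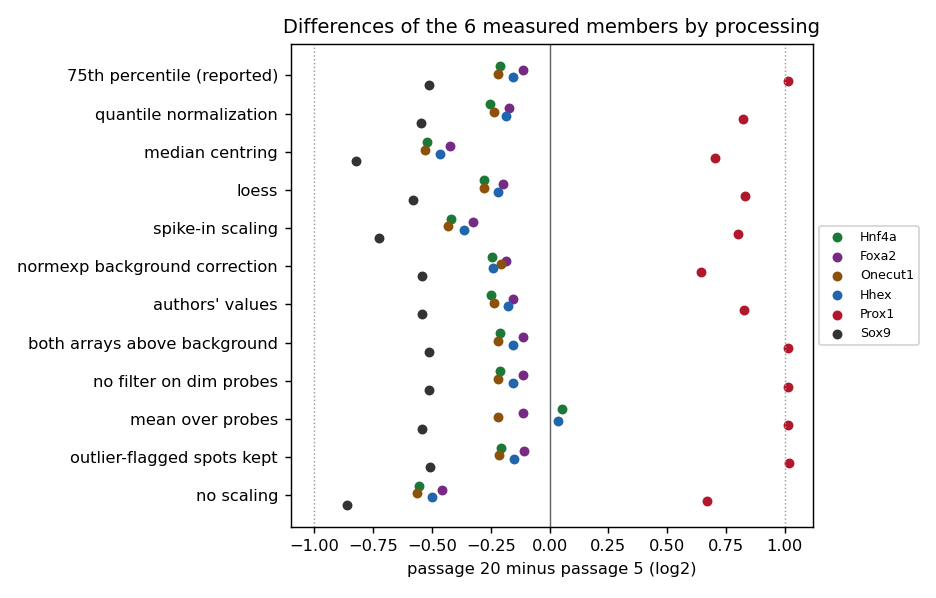
Difference (passage 20 minus passage 5, log2) of the 6 measured members under each of 12 processing settings; dotted lines mark 2-fold. Prox1 passes the line under some settings only, Sox9 lies between -0.86 and -0.51 under all 12, and Hnf4a and Hhex pass 0 only when their probes are averaged.

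Few close relatives of the members were expressed. Of 6 paralogs, Hnf4g, Onecut3, Sox8 and Sox10 were well above background on neither array. Onecut2, which acts with Onecut1 in liver and duct development, had a signal of 7924 at passage 20 and 11390 at passage 5, a difference of -0.18 log2 whose range over 3 probes was -0.29 to -0.18. Prox2 was above background at passage 20 only, with a bound of 0.51 log2. Onecut2 and Onecut1 thus both had small negative differences, of -0.18 and -0.22.

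Of 30 partner factors of the liver network, 23 were measured: 2 were 2-fold higher at passage 20 and 2 were 2-fold lower, where 9% of all measured genes lay past 2-fold in either direction. The median was -0.06 log2. Of the 23, 4 passed at passage 5 only, so that the background call itself fixed their direction as lower. Over the 19 above background on both arrays, 2 were 2-fold higher and 1 was 2-fold lower, with a median of 0.11 log2. Of all 10749 genes above background on both arrays, 266 were 2-fold higher and 428 lower. Gata6, which acts in early liver endoderm, had 3829 at passage 20 and 7224 at passage 5, a difference of -0.57, with another Gata6 probe at 0.00. The oxysterol receptor Nr1h3 (LXR alpha) was 5.57-fold lower, with 162 at passage 20 and 1146 at passage 5. Creb3l3, a membrane-bound hepatocyte activator, was above background at passage 5 only and was at least 3.56-fold lower at passage 20. Zbtb20, a repressor of Afp in the postnatal liver, had 1251 at passage 20 and 565 at passage 5, 2.81-fold higher, and the orphan receptor Nr2f2 (COUP-TFII), which can compete with HNF4A for its sites, was 2.54-fold higher. Gata4, the other GATA factor of the liver bud, and Cebpa, a factor of hepatocyte maturation, were above background on neither array.

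All 21 listed coactivators and corepressors through which HNF4A and FOXA work were measured, on both arrays, with a median of 0.14 log2. As scaled here 1 was 2-fold different, against 9% of all measured genes, and 2 were 2-fold lower with quantile normalization, median centring, loess, spike-in scaling, the authors' values or no scaling. Ppargc1a (PGC-1 alpha), the fasting-induced coactivator that binds HNF4A, had 255 at passage 20 and 1016 at passage 5 and was 3.13-fold lower, and its other probe was lower by 1.17 log2.

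Of 53 known hepatocyte targets of HNF4A, FOXA and ONECUT1 with probes, 29 were above background on neither array, Alb and Ttr among them. A further 7 passed at passage 5 only, so that the background call itself fixed their direction as lower. Of the 17 above background on both arrays, 7 were 2-fold lower at passage 20, 4 were 2-fold higher and 6 were within 2-fold, with a median of -0.28 log2 against 0.08 for the 10749 genes above background on both arrays, of which 428 were 2-fold lower and 266 higher. With those 7 added, 9 of 24 were 2-fold lower, 4 were 2-fold higher and the median was -0.36 log2. The canalicular pump Abcc2 had 226 at passage 20 and 3613 at passage 5 (12.6-fold lower), and the plasma protein precursor Ambp had 199 at passage 20 and 2691 at passage 5 (10.6-fold lower). Apoe was 3.95-fold lower and the tyrosine enzyme Fah 3.83-fold lower. In the other direction the fibrinogen chain Fgb had 4710 at passage 20 and 1538 at passage 5, 3.90-fold higher. Afp, a fetal FOXA target, differed by 0.09 log2. The relation of these values to the factors' own differences was not tested.

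Of 32 genes of the duct programme of SOX9 and ONECUT1, 26 were measured: 6 were 2-fold higher, 3 were 2-fold lower and 17 were within 2-fold, with a median of 0.39 log2, and 16 of the 26 lay above 0, where 57.4% of all measured genes did. Of all measured genes, 3.26% were 2-fold higher and 5.74% 2-fold lower. Over the 24 duct genes above background on both arrays, 5 were 2-fold higher and 2 were 2-fold lower. Of all 10749 genes above background on both arrays, 266 were 2-fold higher and 428 lower. The higher duct genes were led by Ccn1 (6.90-fold), the matrix protein Spp1 (6.83-fold) and Ccn2 (5.39-fold). Spp1 (osteopontin) had 134694 at passage 20 and 25091 at passage 5. Ccn1, Ccn2 and Ankrd1, which was 5.08-fold higher, are known above all as targets of the coactivators YAP and TAZ. The cilium gene Cys1 (cystin) had 509 at passage 20 and 154 at passage 5, 4.21-fold higher. The duct keratin Krt19 was 1.43-fold lower. Sox9 was lower by the same size at its brightest probe, but by 1.29-fold and 1.68-fold at its other probes. Any relation between Krt19 and Sox9 was not tested. The claudin Cldn7 was above background at passage 5 only, at least 3.83-fold lower. Of 10 cholangiocyte (bile duct cell) markers, which are Sox9 and genes of this list, 8 were measured, all on both arrays. Among these 8, Spp1 was 2-fold higher, and Cldn4 and Epcam were 2-fold lower. Their median was -0.45 log2, and 6 lay below 0, where 42.4% of all measured genes did.

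Transcription factors that mark other endodermal organs were mostly undetected: 25 of 30 were above background on neither array, including Pdx1, Nkx2-1, Ptf1a and Sox2. By their brightest probes the 5 measured ones were below 0, as were 42.4% of all measured genes. Of these 5, 2 were 2-fold lower, against 5.74% of all measured genes. However, Klf5, an intestinal epithelial factor at -0.66 log2, had another probe at 1.77. The intestinal factor Cdx2 had 7359 at passage 20 and 21680 at passage 5, 2.32-fold lower. Nkx6-1, a factor of the pancreas, was above background at passage 5 only, at least 3.09-fold lower, so that the background call itself fixed its direction. Of 12 markers of other endodermal tissues, 5 were above background on both arrays and 2 at passage 5 only, with the direction of those 2 fixed by the call. Of the 5, 4 were 2-fold lower at passage 20, against 428 of all 10749 genes above background on both arrays. With those 2 added, 6 of 7 were 2-fold lower. Among them were Cdx2 and the lectin Reg3b, with 1295 at passage 20 and 181476 at passage 5. The part of these markers in the difference of Sox9, which intestinal cells also make, was not tested.

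Neighbouring transcripts within 50 kb of a member probe, by the mm9 positions in the files, gave no 2-fold difference. An unnamed transcript on the opposite strand, whose probe starts 19 bases past the last Sox9 probe (chr11:112648887-112648946), had 199 at passage 20 and 293 at passage 5, a difference of -0.21 log2. Beside Hhex, the mitotic kinesin gene Kif11 differed by 0.51 log2 at its 1 measured probe, opposite in sign to the brighter Hhex probe. Beside Hnf4a, the 3 probes of Ttpal differed by 0.05 to 0.59. Beside Foxa1, Mipol1 differed by -0.36, and beside Foxa3, Irf2bp1 differed by -0.34, Mypop by 0.05 and Sympk by -0.15. Foxa1 and Foxa3 themselves failed the background call on both arrays. Nanos2, also beside Foxa3, 1700122C19Rik beside Hhex and Gm16551 beside Onecut1 were above background on neither array, nor were 2 unnamed transcripts. No other gene probe lay within 50 kb of a Foxa2 or Prox1 probe.

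The upstream start site of Hnf4a, known as P2 and used in fetal liver, pancreas and gut, is shown because ONECUT1 is known to act on this gene. The RefSeq window (GRCm38.p6, plus strand) runs from 250 bases before the start to 50 after it. Capitals mark ATTGAT, the core of the ONECUT1 motif, which here lies on the minus strand and so reads ATCAAT.
Hnf4a P2, chr2:163506607-163506906: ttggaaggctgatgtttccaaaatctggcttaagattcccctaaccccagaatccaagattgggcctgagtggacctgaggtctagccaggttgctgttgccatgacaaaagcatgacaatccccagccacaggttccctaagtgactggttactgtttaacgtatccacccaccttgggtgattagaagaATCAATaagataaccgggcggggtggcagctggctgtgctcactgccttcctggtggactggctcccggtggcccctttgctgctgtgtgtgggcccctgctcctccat
This window held 1 ATTGAT, at offset -59 from the start site. Over 32851 RefSeq promoter windows, searched on both strands, ATTGAT was in 7.54%. Of the 11 windows of 7 members in the table, 2 held it (1 each of Foxa2 and Hnf4a). The FOXA motif TGTTTAC was in 1 member window, that of Foxa1, against 3.65% of all windows. CAAAGTCCA, an HNF4A motif, and ACAATGG, a SOX motif, were in none of the 11, against 0.475% and 3.66% of all windows. These motifs do not overlap one another in the member windows, and a match is a description of letters, not of binding. The 2 Hnf4a windows in the table each held 4 CpG dinucleotides, under the median of 7 over all windows, whereas the other 9 member windows held 12 to 38.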

How the data were processed

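Each culture's RNA was read on its own 1-colour Agilent array with Cy3, per the labels' protocols. The deposited spot intensity is the processed signal of Feature Extraction 10.7.3.1 (protocol GE1_107_Sep09), per the file headers, with a surrogate where a spot did not exceed noise. The deposited mean and background intensity fed an alternative, and the deposited p-value of each spot against background made no call. The authors' deposited log2 table has the same sorted values in both columns (to within 0.000609), a median of 6.31 in each, and r of 0.9999 with the log2 signal, so it was taken as quantile-normalized log2 values, uncentred; its tool is not stated in these sources.

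Control and outlier-flagged spots (69 at passage 20, 73 at passage 5) were dropped, and 0 gene spots were saturated. Spots of a probe were averaged in log2, and the 75th percentile of the array was subtracted. A probe passed the background call where 50% or more of its spots did. Names came from RefSeq's GRCm38.p6 table (27645 probes by accession, 5585 by symbol, 471 by older symbol, 7442 without a name), and each gene took its brightest probe. For a gene above background on 1 array, the fold is a bound against the higher of its dim value and the lowest detected level (-3.17 log2 at passage 20, -3.32 at passage 5). The threshold was 2-fold.

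The members and lists were chosen with earlier results of these data known. The text names all members, neighbours within 50 kb, each list's genes past 2-fold (up to 6 by size) or else its 3 largest, and a fixed set (Afp, Alb, Ttr, Spp1, Krt19, Gata4, Gata6, Onecut2, Cebpa and Ppargc1a among it); some results under this rule are not reported here. Other undetected genes, the markers and the sex-linked genes were picked after their values were seen. The code was first run on simulated arrays. Versions were pandas 2.3.3, statsmodels 0.14.6 (loess) and limma 3.58.1 (normexp).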

Additional observations from a re-analysis of the deposited data

How the results depend on the processing

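The count of members 2-fold higher, 1 as reported (Prox1), was 0 with quantile normalization, median centring, loess, spike-in scaling, normexp background correction, the authors' values and no scaling (the last chosen after seeing the data), and 2 with no filter on dim probes, which lets in Foxa1 below the background call. It was 1 with both arrays above background, the mean over probes, flagged spots kept and a threshold of 1.5-fold (over all genes, 10.4% were 1.5-fold higher and 11.8% 1.5-fold lower). The count of members 2-fold lower was 0 in every one of these settings. Over them Prox1 ran from 0.64 to 1.02 log2, Sox9 from -0.86 to -0.51, Onecut1 from -0.57 to -0.21, Foxa2 from -0.46 to -0.11, Hnf4a from -0.56 to 0.05 and Hhex from -0.50 to 0.03; the positive ends of Hnf4a and Hhex come from the mean over probes. Over all genes, 385 were 2-fold higher and 677 lower as reported, 193 and 1127 with median centring, 233 and 964 with spike-in scaling, 252 and 398 with normexp, 184 and 1217 with no scaling, and 1286 and 1286 with no filter.

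Of 144 list counts under alternatives, 120 were within 1.5 times of the reported one. These 120 include cases of 0 against 0, as for most counts of the paralogs, so the share overstates the stability of the other counts. Hepatocyte targets 2-fold lower numbered 7 to 19 (19 with no filter on dim probes, which adds undetected members) and 2-fold higher 2 to 4. Duct genes 2-fold higher numbered 5 to 11 (11 at 1.5-fold) and 2-fold lower 1 to 3. Partner factors 2-fold higher numbered 1 to 3 and lower 1 to 4, coactivators and corepressors lower 1 to 2, and factors of other organs lower 1 to 3. No paired analysis was possible because each passage has 1 array. Signal over background limits Foxa1 and Foxa3, which failed the background call on both arrays, and Prox1, of which 2 of 3 probes did.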
